A study of Mus musculus with 4 samples.

Results

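Cathepsins are the main proteases of the lysosome. The family was followed here through 10 genes, Ctsb, Ctsc, Ctsd, Ctsf, Ctsh, Ctsk, Ctsl, Ctso, Ctss and Ctsz, of the 18193 genes that had a probe set. It was selected on the measured difference of Ctsc between the sublines compared, and the other 9 genes were taken as relatives of Ctsc. Every probe set annotated to a member was used, 22 of 45101 in all. The values that chose the family are those of Ctsc in the comparison given here, so the differences of the members are given as a description, with no p-value.

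RNA was measured on 2 arrays of a tumorigenic subline, called glioma-initiating cell-like (GIC), and on 2 arrays of a nontumorigenic subline (non-GIC). Both sublines derive from neural stem cells of the telencephalon of p53-/- C57BL/6 embryos at embryonic day 14.5. Both were electroporated with pCMS-EGFP-HRasL61, which carries GFP and an activated HRas, and with pBabe-neo, were kept in 0.5 mg/ml neomycin and were sorted for GFP. The cells grew as floating spheres in serum-free medium with bFGF, forskolin and 10 ng/ml PDGF. The loss of p53 and the HRas vector are therefore shared by both sublines, and no array of cells without them was analysed here. The labels do not say whether a subline is 1 clone, nor whether its arrays hold RNA of separate cultures. The p-values then cover only the spread between the arrays, which may be technical.

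Cathepsins are made as inactive precursors, carry a mannose 6-phosphate tag to the lysosome and become active there as the compartment is acidified. Of the 10 members, 9 are cysteine proteases of the papain type and 1, Ctsd, is an aspartic protease. Some of the cysteine cathepsins cut inside a protein chain, and others trim residues from its ends. Cystatins bind the cysteine members and inhibit them. In the brain, cathepsins are known from the lysosomes of neurons and glia, and Ctss above all from microglia.

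Each value below is the deposited log2 signal of a probe set, and a difference is GIC minus non-GIC on that scale. A probe set's signal depends on how its probes bind, so no level is set against that of another probe set. A gene stands for its probe set with the highest mean. It entered the fit across all genes with 2 or more arrays over the filter level of 5.97, the 40th percentile of the table. Of the 10 members 9 entered it, and Ctss, at 4.37 and 4.25 in GIC, against 4.26 and 4.01 in non-GIC, lay below that level on all 4. Array medians lay between 6.58 and 6.63. Of the genes marking neural stem and progenitor cells, 10 entered the fit. Among them the transcription factor Sox2 had 10.20 and 10.59 in GIC, against 11.15 and 11.44 in non-GIC. Its difference was -0.90 (SE 0.22). Sox2 does not stand for the list, in which the difference was above 0 for 2 of the 10. Nes and Fabp7 were lower in GIC past the threshold given below, and Fabp7 lay under the filter level on both GIC arrays. With 2 arrays a subline, precision is limited by their number.

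The members that trim chain ends include the ones furthest apart between the sublines. Ctsc, or dipeptidyl peptidase I, removes pairs of residues from the start of a protein and so activates the serine proteases stored in the granules of immune cells. It had 5.68 and 6.39 in GIC, against 11.03 and 11.59 in non-GIC. Both GIC arrays lay far below both non-GIC arrays, with GIC replicate 1 under the filter level and GIC replicate 2 just over it. The difference was -5.28 (SE 0.33), or 38.8-fold lower in GIC, the third largest decrease among 13366 genes. In bulk RNA, fewer cells with a transcript and less of it per cell cannot be told apart.

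The other probe sets of Ctsc pointed the same way over smaller distances. The second, of a kind that can bind several transcripts, had 3.52 and 3.47 in GIC, against 5.86 and 6.55 in non-GIC, a difference of -2.71. The third had 4.10 and 4.02 in GIC, against 4.71 and 5.05 in non-GIC, a difference of -0.82. On all 3 probe sets every GIC value was under every non-GIC value. The second probe set lay under the filter level on every array but non-GIC replicate 2, and the third on every array. Averaging the probe sets of the gene brought the difference to -2.94, or 7.65-fold lower in GIC.

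Ctsh, an aminopeptidase that takes single residues from the start of a protein, went the other way. It had 9.30 and 9.58 in GIC, against 5.34 and 5.64 in non-GIC. The GIC arrays were close together and well above the filter level, and both non-GIC arrays were under it, so Ctsh entered the fit only through the subline in which it was high. The difference was 3.95 (SE 0.18), or 15.5-fold higher in GIC, which ranked 31 among the increases. A second Ctsh probe set had 8.46 and 8.88 in GIC, against 5.14 and 4.98 in non-GIC, a difference of 3.61. That probe set is of a kind that can bind several transcripts.

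The remaining chain-end proteases overlapped between the sublines. Ctsb, which removes pairs of residues from the end of a protein and can also cut inside it, had 12.95 and 12.52 in GIC, against 12.34 and 12.84 in non-GIC. The non-GIC arrays enclosed one GIC value, and the difference was 0.14 (SE 0.24, 95% interval -0.50 to 0.79). The 5 Ctsb probe sets, whose levels spanned a wide range, gave differences of 0.04 to 0.17 and overlapped on each. Ctsz, a carboxypeptidase that takes single residues, had 13.38 and 13.00 in GIC, against 12.51 and 13.14 in non-GIC. Its difference was 0.36 (SE 0.27, 95% interval -0.33 to 1.06), and its 3 probe sets gave 0.29 to 0.36.

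**Figure D1:**
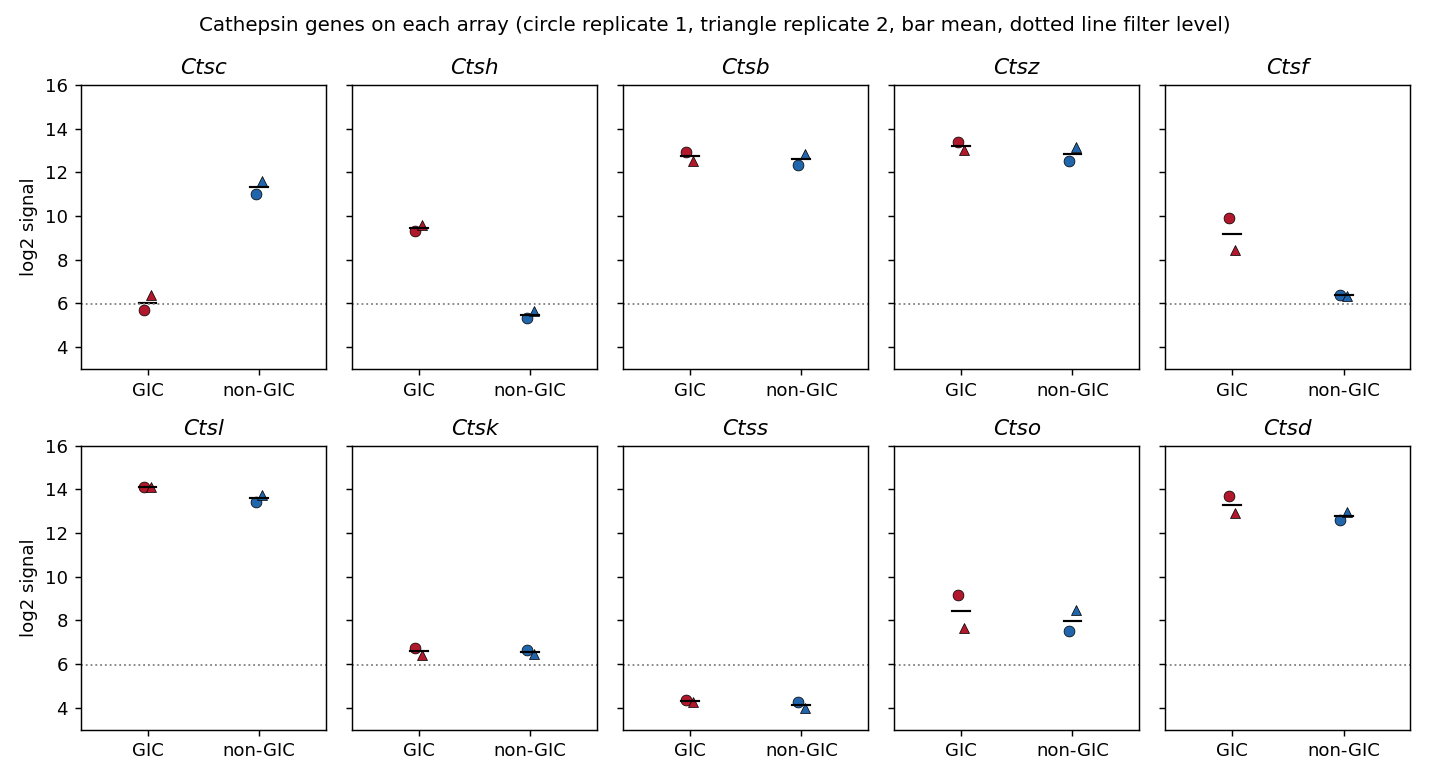
Log2 signal of the 10 cathepsin genes, each through its probe set with the highest mean, on the 2 GIC arrays (red) and the 2 non-GIC arrays (blue). Circles are replicate 1, triangles replicate 2, bars the mean, and the dotted line the filter level of 5.97. Ctsc is low in GIC and high in non-GIC, Ctsh and Ctsf the reverse, and Ctss lies under the line on all arrays.

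Among the members that cut inside the chain, Ctsf stood apart. Ctsf, a cysteine cathepsin with an unusually long propeptide, had 9.91 and 8.46 in GIC, against 6.39 and 6.36 in non-GIC. Both GIC values were above both non-GIC values, but they differed by 1.45 from each other, whereas the non-GIC arrays were 0.03 apart. The difference was 2.81 (SE 0.49), or 7.02-fold higher in GIC, and leaving out GIC replicate 1 or GIC replicate 2 gave 4.25-fold or 11.6-fold. The second Ctsf probe set, of a kind that can bind several transcripts, had 5.69 on both arrays of GIC, against 5.75 and 5.59 in non-GIC. It lay under the filter level throughout and showed no such difference (0.02). Averaging both probe sets brought the Ctsf difference to 1.41, or 2.67-fold higher in GIC.

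Ctsl, a broadly expressed endopeptidase, had 14.12 and 14.11 in GIC, against 13.40 and 13.76 in non-GIC. The groups did not overlap, and the difference was 0.53 (SE 0.15), or 1.44-fold higher in GIC. Its second probe set had 6.67 and 7.03 in GIC, against 6.52 and 6.51 in non-GIC, also without overlap. Its brighter probe set is of a kind that can bind several transcripts.

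Ctsk, the collagen-degrading cathepsin of osteoclasts, had 6.76 and 6.42 in GIC, against 6.64 and 6.45 in non-GIC. The arrays overlapped a little above the filter level, with a difference of 0.05 (SE 0.16, 95% interval -0.38 to 0.48). Ctss, an endopeptidase that processes the invariant chain in antigen-presenting cells, had the low values given above. Its gene neighbours Ctsk, with 0 other protein-coding genes between them in assembly GRCm38.p6.

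Ctso, one of the less studied cysteine cathepsins, varied more between the arrays of a subline than between sublines. It had 9.17 and 7.67 in GIC, against 7.50 and 8.49 in non-GIC. The highest and the next to lowest value both came from GIC, and the difference was 0.43 (SE 0.60, 95% interval -1.15 to 2.0). Its second probe set lay between 4.55 and 4.66 on all arrays. Ctsd, the aspartic member and one of the most studied lysosomal proteases, had 13.69 and 12.92 in GIC, against 12.61 and 12.95 in non-GIC. GIC replicate 2 lay between the non-GIC values, and the difference was 0.52 (SE 0.30, 95% interval -0.26 to 1.30). The only Ctsd probe set is of a kind that can bind several transcripts.

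**Figure D2:**
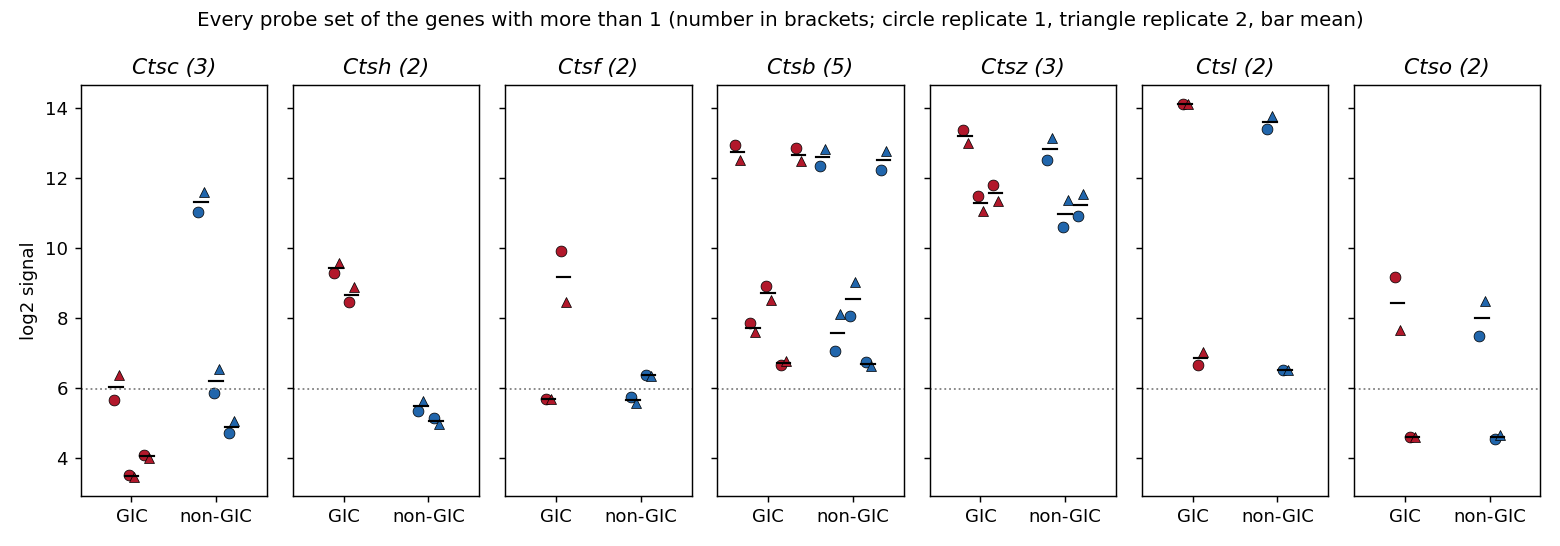
Log2 signal of every probe set of the 7 cathepsin genes with more than 1, with GIC in red and non-GIC in blue; the number of probe sets is in brackets, symbols are the replicates, bars the means and the dotted line the filter level of 5.97. The 3 Ctsc probe sets lie lower and the 2 Ctsh probe sets higher in GIC, while only the brighter Ctsf probe set is higher there.

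Across the 9 members in the fit, limma's moderated test across all genes placed 1 higher in GIC, Ctsh, and 1 lower, Ctsc, past an adjusted p of 0.05. Over all 13366 genes it called 1.92%, with 1.23% higher and 0.688% lower. As the family was picked for Ctsc in this same comparison, nothing is read from that count. The groups did not overlap for 4 members, Ctsh, Ctsf and Ctsl on the higher side and Ctsc on the lower, against 50.4% of all genes (25.5% higher and 24.9% lower). The difference was above 0 for 8 of the 9 members, all but Ctsc, and the median over the 9 was 0.43 against -0.01 for all tested genes. The Ctsh call was absent without non-GIC replicate 1, with a value of 3.80 there, and the Ctsc call was absent without either non-GIC array, with the decrease staying within 30.2-fold to 49.7-fold whichever array was left out. Ctsf was called when either GIC array was left out, which removes the spread between them from the fit.

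**Figure D3:**
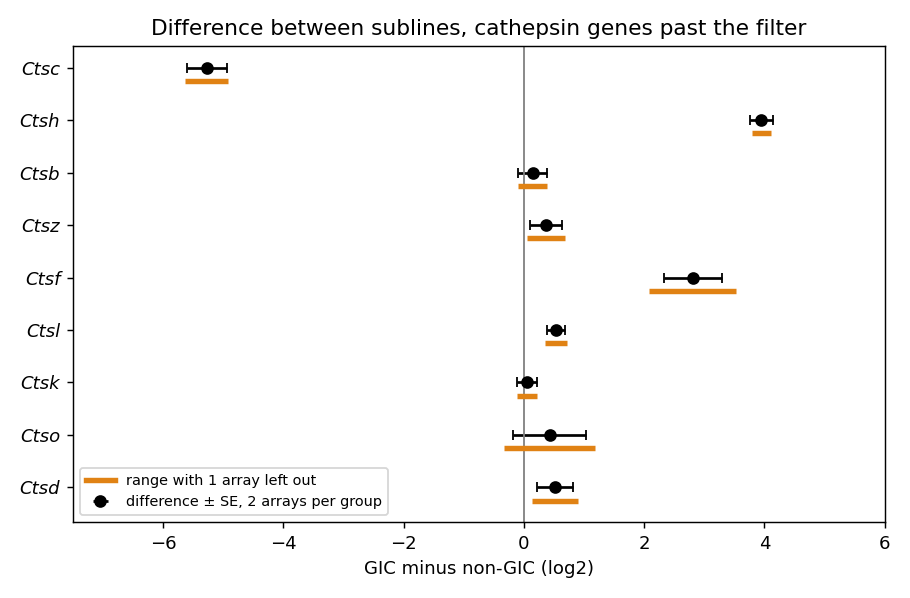
GIC minus non-GIC difference (log2) of the 9 cathepsin genes in the fit across all genes; points are differences with their SE from 2 arrays per group, and orange bars give the range with 1 array left out. Ctsc lies near -5.28, Ctsh near 3.95 and Ctsf near 2.81, and the bars of Ctsb, Ctsk and Ctso cross 0.

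The bases just before the transcription start are shown for 3 members, taken from RefSeq for assembly GRCm38.p6: Ctsc, which was lower in GIC, Ctsf, which was higher, and Ctsd, whose groups overlapped. The table of promoters held 8 of the 10 members, all but Ctsb and Ctsh. Each line gives the 250 bases before the start, 5′ to 3′ on the gene's strand. Capitals mark the E-box core CACGTG, which is the core of the site bound by the lysosomal regulator Tfeb and its relatives, and the GC box GGGCGG, on either strand. The Ctsc stretch is chr7:88277835-88278084 on the plus strand, that of Ctsf is chr19:4854915-4855164 on the plus strand, and that of Ctsd is chr7:142387828-142388077 on the minus strand.
Ctsc: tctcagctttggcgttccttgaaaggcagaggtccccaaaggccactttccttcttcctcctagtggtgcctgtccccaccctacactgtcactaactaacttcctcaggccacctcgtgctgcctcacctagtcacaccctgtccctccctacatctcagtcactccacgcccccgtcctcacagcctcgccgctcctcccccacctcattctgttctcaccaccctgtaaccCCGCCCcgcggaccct
Ctsf: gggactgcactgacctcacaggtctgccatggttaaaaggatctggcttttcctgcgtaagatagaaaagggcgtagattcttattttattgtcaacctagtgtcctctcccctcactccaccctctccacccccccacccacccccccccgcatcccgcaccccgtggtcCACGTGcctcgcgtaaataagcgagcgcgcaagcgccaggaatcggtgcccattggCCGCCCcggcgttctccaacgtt
Ctsd: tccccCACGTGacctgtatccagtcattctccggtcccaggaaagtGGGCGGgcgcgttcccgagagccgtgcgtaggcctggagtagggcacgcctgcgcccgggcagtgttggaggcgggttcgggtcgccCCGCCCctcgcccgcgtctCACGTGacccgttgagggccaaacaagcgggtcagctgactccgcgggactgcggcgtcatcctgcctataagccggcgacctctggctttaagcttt

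The E-box core was found in 3 of the 8 members, Ctsd, Ctsf and Ctsl, and in 6.02% of 32851 promoter stretches of this length. Ctsd had 2 copies and Ctsf and Ctsl 1 each, and the Ctsc stretch had none. The GC box was found in 5 of the 8 (Ctsc, Ctsd, Ctsf, Ctss and Ctsz) and in 32.7% of all stretches, and TATAAA in 1, Ctss, and in 12.4% of all. A match describes letters in this window and is not a binding site, and these counts carried no test.

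Of 12 further cathepsin genes on the array, 3 entered the fit. Ctsa, a serine carboxypeptidase that also protects other lysosomal enzymes, had 14.25 and 13.58 in GIC, against 11.23 and 12.11 in non-GIC. The groups did not overlap, and the difference of 2.25 (SE 0.38), or 4.74-fold higher in GIC, missed the threshold (limma adjusted p = 0.0766). Ctsw, known from cytotoxic lymphocytes, had a difference of 0.22 (limma adjusted p = 0.445) and the aspartic Ctse one of -0.06 (limma adjusted p = 0.893). With probe sets of the kind binding several transcripts left out, the Ctse difference was 0.25, in the other direction. The other 9, among them the placental cathepsins and the granule protease Ctsg, did not pass the filter.

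The machinery around cathepsins held 134 listed genes, of which 123 had a probe set and 109 entered the fit. With limma 0 of the 109 passed the adjusted threshold in either direction. At an unadjusted p under 0.05 there were 14 higher and 4 lower in GIC, against 17.9% of all genes (9.75% higher and 8.1% lower). The median difference over the 109 was 0.19, against -0.01 for all tested genes. The count was 0 as well when the trend was dropped from eBayes or a robust prior was used.

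Of the 5 tested inhibitors of cysteine cathepsins, none passed. Cst3, the secreted inhibitor cystatin C, had 15.04 and 14.45 in GIC, against 12.93 and 13.97 in non-GIC. The groups did not overlap, with a difference of 1.30 (SE 0.40, limma adjusted p = 0.210), and the list's median was -0.06. Of 22 genes for the processing of cathepsins and their delivery to the lysosome, 16 had a difference above 0 and the median was 0.15. M6pr, the small mannose 6-phosphate receptor, had 10.77 and 10.88 in GIC, against 11.47 and 11.38 in non-GIC (difference -0.59, SE 0.15, limma adjusted p = 0.160). Its probe set is of a kind that can bind several transcripts. Igf2r, in the same list, went the other way. It had 11.27 and 10.49 in GIC, against 10.37 and 9.27 in non-GIC (difference 1.06, SE 0.47, limma adjusted p = 0.336).

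Of 30 tested lysosomal hydrolases other than cathepsins, none passed. The difference was above 0 for 27 of them, with a median of 0.33 and a range of -0.59 to 1.06. Idua, which degrades glycosaminoglycans, had 8.50 and 8.47 in GIC, against 7.94 and 7.80 in non-GIC (difference 0.61, SE 0.15, limma adjusted p = 0.140). Among 17 lysosomal membrane proteins the median was 0.32, with 13 above 0, and the Batten disease protein Cln3 had 8.11 and 8.05 in GIC, against 7.40 and 7.21 in non-GIC (difference 0.77, SE 0.14, limma adjusted p = 0.0931). The 15 genes of the vacuolar proton pump had a median of 0.07, and the pump subunit gene Atp6v0b a difference of 0.72 (limma adjusted p = 0.192).

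Of 10 regulators of lysosome formation and of its nutrient sensing, with a median of 0.07, Rragd had the smallest p. This small GTPase, which helps to recruit the mTOR complex to the lysosome, had 9.28 and 8.90 in GIC, against 6.07 and 7.60 in non-GIC (difference 2.25, SE 0.53, limma adjusted p = 0.139). Averaging the probe sets of Rragd brought its difference to 1.13. Of 5 tested genes among the granule proteases that Ctsc activates and the granule protein Nkg7, the mast cell protease Cma1 had a difference of -0.21 (limma adjusted p = 0.337), and the list's median was -0.14. Their levels lay close to the filter level. Of 5 tested genes of MHC class II processing, the lysosomal thiol reductase Ifi30 had 6.73 and 7.04 in GIC, against 7.48 and 7.71 in non-GIC (difference -0.71, SE 0.17, limma adjusted p = 0.144).

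The arrays of a subline differed from each other in the cathepsins and in other lysosomal genes. Of the 9 members 7 were higher on GIC replicate 1 than on GIC replicate 2, with a median difference of 0.38, against 0.00 over all tested genes. On the non-GIC arrays 7 of the 9 were higher on replicate 2 than on replicate 1, with a median replicate 1 minus replicate 2 of -0.36, against 0.01 over all tested genes. Over all tested genes 50.7% were higher on GIC replicate 1 and 48.0% on non-GIC replicate 2. The 30 other lysosomal hydrolases showed the same pattern, with 29 higher on GIC replicate 1 (median 0.55) and 28 higher on non-GIC replicate 2 (median -0.55). So did the 17 lysosomal membrane proteins, with 15 higher on GIC replicate 1 (median 0.43) and 15 higher on non-GIC replicate 2 (median -0.19). Of the 15 proton pump genes 13 were higher on GIC replicate 1 (median 0.27) and 10 on non-GIC replicate 2 (median -0.16). The genes for processing and delivery did not show this pattern in non-GIC, where 11 of 22 were higher on replicate 2, with medians of 0.09 in GIC and 0.02 in non-GIC. Of the 10 regulators 6 were higher on non-GIC replicate 2, with medians of 0.29 in GIC and -0.03 in non-GIC. Outside the lysosome, the 6 tested fibroblast and mural genes had a median of 1.08 in GIC and -0.25 in non-GIC. The other marker lists had smaller medians in GIC. In GIC and non-GIC these were 0.07 and -0.25 for neural stem and progenitor genes and 0.19 and 0.35 for osteoclast genes. They were 0.06 and 0.13 for endothelial genes and -0.06 and -0.02 for microglia, macrophage and leukocyte genes. Ctsb, Ctsd, Ctso and Ctsz, 4 of the 5 members that overlap between sublines, each had their highest value on GIC replicate 1 and the next on non-GIC replicate 2. Ctsk was also highest on GIC replicate 1, but its next value was on non-GIC replicate 1. Ctsc and Ctsh were higher on replicate 2 of both sublines. These values are a description with no test, and their part in the differences between sublines was not tested.

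**Figure D4:**
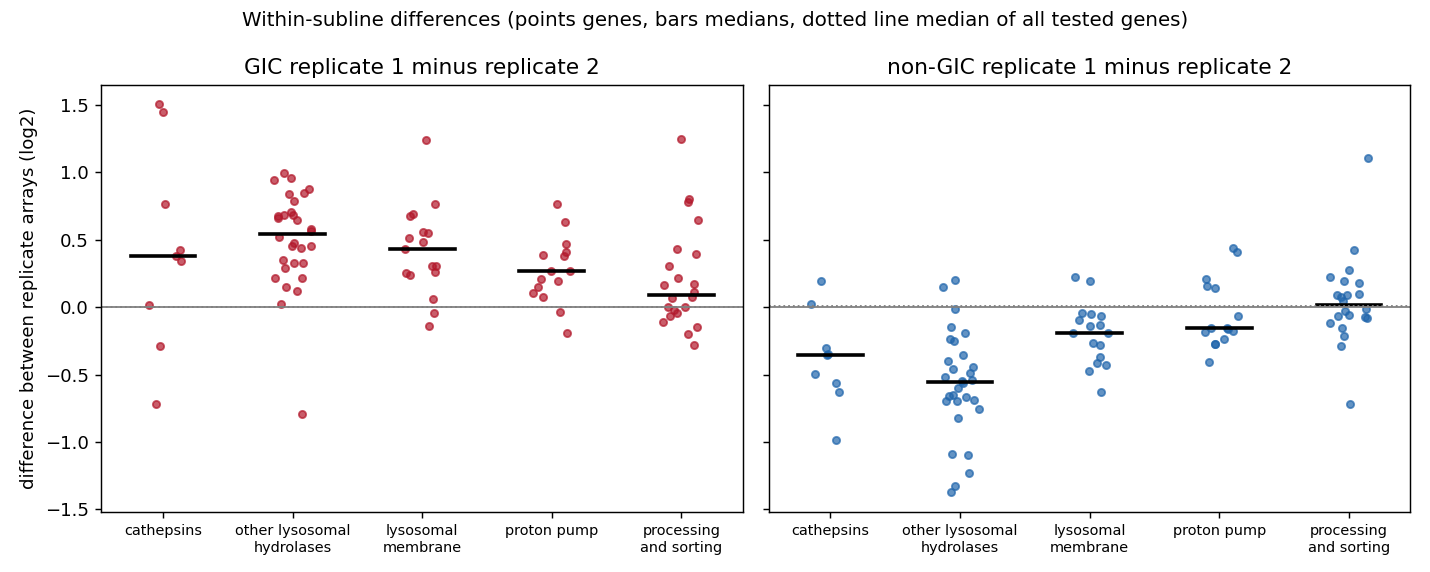
Replicate 1 minus replicate 2 (log2) within GIC (left) and within non-GIC (right) for the tested cathepsins and 4 lists of related genes; points are genes, bars medians, and the dotted line the median of all tested genes. Cathepsins, other lysosomal hydrolases, lysosomal membrane proteins and proton pump genes lie mostly above 0 in GIC and mostly below 0 in non-GIC.

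Markers of other cells known for cathepsins were checked in the same arrays. Of 12 microglia, macrophage and leukocyte genes 4 entered the fit and none passed, and the list's median was -0.03. Only 1 of the 4, Tmem119, had a difference above 0 (0.45, limma adjusted p = 0.732). It had 11.60 and 10.20 in GIC, against 10.00 and 10.90 in non-GIC. Csf1r, the receptor for the macrophage growth factor, had 7.26 on both arrays of GIC, against 7.55 and 7.57 in non-GIC (difference -0.30, limma adjusted p = 0.303). With probe sets of the kind binding several transcripts left out, the Csf1r difference was 0.07, in the other direction. The part of such cells in the cathepsin differences was not tested.

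Of 8 osteoclast genes 3 were tested and none passed, with the matrix protease Mmp9 at 5.98 and 5.79 in GIC, against 7.72 and 5.78 in non-GIC (limma adjusted p = 0.550). Of 6 endothelial genes 2 were tested and none passed, and the tight junction protein Cldn5 had a difference of -0.16 (limma adjusted p = 0.497). Of 6 tested fibroblast and mural genes 1 passed, Acta2, an actin of smooth muscle, with a difference of -1.71 (limma adjusted p = 0.0348). Its probe set is of a kind that can bind several transcripts, and without such probe sets the difference was -3.68. The median differences were -0.18 for the osteoclast, -0.11 for the endothelial, 0.16 for the fibroblast and mural and -0.23 for the neural stem and progenitor list. Of the 10 tested neural stem and progenitor genes 2 passed, both lower in GIC. Over all genes 1.92% passed, 0.688% as lower, and nothing is read from the counts of these short lists. The intermediate filament Nes had 9.17 and 8.97 in GIC, against 11.45 and 10.81 in non-GIC (limma adjusted p = 0.0458). The lipid-binding protein Fabp7 had 5.23 on both arrays of GIC, against 6.58 and 6.90 in non-GIC (limma adjusted p = 0.0258). Both GIC values lay under the filter level, so Fabp7 entered the fit only through non-GIC, where it was high. The GIC values of Fabp7 were also equal, so that subline added no spread to its test. The calls of Acta2, Nes and Fabp7 were lost with the replicate block. They were also lost without either non-GIC array, and those of Nes and Fabp7 without either GIC array too. That of Nes was also lost without a filter and without a trend in eBayes.

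The 5 tested genes most like Ctsc over the 4 arrays were Sox11, Hspb8, Tmem35a, Cavin2 and Vat1l. All were lower in GIC, as the measure requires of a gene close to Ctsc. Likeness was the Euclidean distance between values centred on each gene's mean, which was 0.59, 0.70, 0.73, 0.73 and 0.97 for them in that order. Sox11, a transcription factor of immature neurons, had 5.19 and 5.35 in GIC, against 10.71 and 10.68 in non-GIC. Hspb8, a small heat shock protein, had 5.60 and 5.62 in GIC, against 11.03 and 11.71 in non-GIC. The order is a description over 4 arrays and carried no test.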

How the data were processed

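RNA of 2 GIC and 2 non-GIC samples was labelled with biotin per the labels' protocols. The authors deposited 1 log2-scale signal per probe set and array. The base follows from the range of the values; how background, probe summary and scaling were handled is not given in the sources used here. Of 45101 probe sets, 34945 had 1 gene in the platform annotation, 932 several and 9160 none; 64 were controls. Only the first kind was used, with symbols updated to assembly GRCm38.p6. Of 199 listed genes 187 had a probe set.

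GIC was compared with non-GIC in limma 3.58.1 under R 4.3.3 (lmFit, then eBayes with an intensity trend, group only), two-sided, with Benjamini-Hochberg adjustment over 13366 genes at 0.05. There were 2 residual and 2.72 prior degrees of freedom, which set the 95% intervals. The procedure was tested on simulated data. The simulated arrays were independent and the spreads were shuffled over genes. That test therefore covers neither technical replicates nor the intensity trend, and says nothing of the error rate of these calls. The members and lists were chosen with earlier results of these data known. Named genes were all members, the further cathepsins in the fit and the 5 nearest Ctsc. Of each list, up to 3 called genes or the 1 with the smallest p were named. Sox2, Igf2r and Tmem119 were added after their values were seen. Alternatives covered scaling, filter, probe set choice, eBayes options, the replicate block and each array left out. Motifs were exact matches. Figures used matplotlib 3.10.9.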

Additional observations from a re-analysis of the deposited data

How the results depend on the processing

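The count of called cathepsins was 2 under the scaling, filter, probe set, eBayes and same-number block alternatives. With 1 array left out it ranged from 0 without non-GIC replicate 1 to 3 without either GIC array. The count over all genes ranged from 12 without non-GIC replicate 1 to 188 without GIC replicate 2, that of the machinery lists was 0 throughout these, and that of the marker lists ranged from 0 without either non-GIC array to 2 without GIC replicate 2. A subline left with 1 array borrows the spread of the other.

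The replicate numbers state no pairing. Deviations of same-numbered arrays correlated at -0.32 over tested genes, and those of crossed numbers at 0.32. With 2 arrays a subline these values can differ only in sign, so they cannot show whether arrays were paired. With the replicate block 29 of all genes, 2 cathepsins, 0 machinery genes and 0 marker genes were called. A block with crossed numbers was added after seeing the data. It gave 685 genes, 3 of the 9 tested cathepsins, 1 further cathepsin (Ctsa) and 3 machinery genes, Cst3 and Rragd among them. Differences of Ctsb, Ctsk and Ctso changed sign with 1 array left out, over -0.10 to 0.39, -0.12 to 0.22 and -0.33 to 1.18. Those of Ctsz and Ctsd stayed above 0, over 0.05 to 0.68 and 0.14 to 0.91. The cause was not tested. Ctsc in GIC and Ctsh in non-GIC lay near or under the filter level of 5.97, and whether these signals exceed background was not tested.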
